A study of Mus musculus with 4 samples.

Results

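The comparison of differentiated epithelial cells with intestinal stem cells (ISCs) of the mouse colon on postnatal day 21 (P21) was described across the autosomes. The assay was bisulfite sequencing of the whole genome, which reads unmethylated cytosines as T and methylated cytosines as C. The animals, of strain C57, were offspring of Lgr5-EGFP-CreER mice mated to wild-type mice, and the sorted cells of every group came from this cross, in which EGFP and CreER are driven by the endogenous regulatory sequences of Lgr5. ISCs were the Lgr5-EGFP+ cells and differentiated cells were the Lgr5-EGFP-/EpCAM+ cells. The P21 libraries were made from a pool of Lgr5-EGFP+ offspring, and the P0 libraries, sorted by the same gates on the day of birth, from pooled litters. Each of the 4 groups (ISC P0, differentiated P0, ISC P21 and differentiated P21) had 1 library. Every test below therefore compares 2 libraries and not conditions, and no value has a replicate error. The differentiated gate takes every EpCAM+ cell without reporter signal, whatever its type. The paper describes mosaic expression in adult mice of this line, with EGFP-negative crypts. The gate can therefore also hold stem cells without reporter signal.

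A methylation level is the percentage of calls at CpG cytosines that were methylated, with both strands summed, and a difference is the level in differentiated cells minus that in ISCs, in percentage points. The comparison was made over 200-bp bins that held 2 or more CpGs and had 20 or more calls in each P21 library. There were 3651501 of them, which is 73.9% of the 4938585 autosomal bins with at least 2 CpGs. The ISC P21 and differentiated P21 libraries held 1040405243 and 1023427645 calls, of which 62.4% and 52.3% lay at 2116 and 2917 positions with more than 1000 calls each. Outside these positions the libraries held 391680027 and 488450494 calls, so the differentiated library was the deeper one there. The median was 64 calls per bin in ISCs and 77 in differentiated cells. The differentiated library was deeper at GC-rich sequence, with a median of 311 calls per CpG island (CGI) bin against 179 in ISCs. On the X and Y chromosomes, calls per CpG in bins of matched GC were 11.7 and 6.73 in ISCs and 11.4 and 6.93 in differentiated cells, against 18.4 and 19.1 on chromosome 1.

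Methylation of CpGs is copied at each cell division by DNMT1 and set anew by DNMT3A and DNMT3B, while TET enzymes take part in its removal. Promoters within CGIs are mostly unmethylated, gene bodies are mostly methylated, and distal enhancers tend to lose methylation when transcription factors occupy them. In the colon, ISCs at the crypt base divide under Wnt signals and give rise to colonocytes, goblet cells, enteroendocrine cells and tuft cells, which are shed within days.

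Sequences are printed for 6 bins outside annotated exons that were called by both tests described below, with CpGs in capitals. They are plus-strand sequences of the mm9 reference. The first lies in intron 1 of Lgr5, the gene whose reporter separated the populations, and had too few minus-strand calls for a comparison. The next in intron 6 of Foxp1, in intron 41 of Nbea and in intron 2 of Commd1 were lower in differentiated cells, and the last bins, near Evx1 and near Lmbr1l, were higher.
Lgr5, chr10:115021601-115021800: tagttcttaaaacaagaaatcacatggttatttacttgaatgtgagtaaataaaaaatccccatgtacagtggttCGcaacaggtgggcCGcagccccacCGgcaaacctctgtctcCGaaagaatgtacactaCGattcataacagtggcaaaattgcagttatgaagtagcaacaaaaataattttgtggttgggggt
Foxp1, chr6:98949401-98949600: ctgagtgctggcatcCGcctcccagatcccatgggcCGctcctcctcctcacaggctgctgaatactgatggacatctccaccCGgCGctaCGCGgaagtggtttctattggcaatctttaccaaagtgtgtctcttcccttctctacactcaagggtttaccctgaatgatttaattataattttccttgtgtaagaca
Nbea, chr3:55584201-55584400: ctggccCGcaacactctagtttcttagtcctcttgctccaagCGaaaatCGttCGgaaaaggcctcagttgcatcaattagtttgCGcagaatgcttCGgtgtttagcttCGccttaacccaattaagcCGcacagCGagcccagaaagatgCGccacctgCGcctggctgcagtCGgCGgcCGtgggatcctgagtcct
Commd1, chr11:22872401-22872600: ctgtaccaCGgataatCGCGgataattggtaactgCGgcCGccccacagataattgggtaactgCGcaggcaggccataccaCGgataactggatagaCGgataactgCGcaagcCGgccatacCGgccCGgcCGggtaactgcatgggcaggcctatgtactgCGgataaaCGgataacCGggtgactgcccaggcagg
Evx1 (3629 bp away), chr6:52272001-52272200: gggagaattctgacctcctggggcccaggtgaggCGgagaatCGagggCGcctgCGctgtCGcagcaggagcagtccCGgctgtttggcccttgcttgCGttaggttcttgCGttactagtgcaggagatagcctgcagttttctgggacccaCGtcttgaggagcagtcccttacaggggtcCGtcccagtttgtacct
Lmbr1l (4139 bp away), chr15:98752801-98753000: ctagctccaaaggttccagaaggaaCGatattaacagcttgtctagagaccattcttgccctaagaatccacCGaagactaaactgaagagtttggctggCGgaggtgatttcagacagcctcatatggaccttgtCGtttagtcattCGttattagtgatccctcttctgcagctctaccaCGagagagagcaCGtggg
The printed Lgr5 bin holds 5 CpGs and had a level of 86.7% in ISC P0, 98.8% in differentiated P0, 50.5% in ISC P21 and 88.3% in differentiated P21. The Foxp1 bin, with 6 CpGs, had 42.2%, 41.3%, 61.7% and 20.2% in the same order. The Nbea bin, with 14 CpGs, had 22.7%, 24.3%, 60.4% and 33.9%. In the Lgr5 bin ISC P21 was far below the other libraries and in the Nbea bin far above them, while in the Foxp1 bin the P0 levels lay between those of P21. The Commd1 bin, with 16 CpGs, had 60.2%, 45.2%, 68.6% and 43.3%. The bin near Evx1, with 10 CpGs, had 22.2%, 17.6%, 11.3% and 32.2%. The bin near Lmbr1l, with 7 CpGs, had 82.4%, 83.9%, 45.8% and 78.4%, so ISC P21 was the library apart from the other 3.

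Averaged over bins, ISCs and differentiated cells at P21 had levels of 76.4% and 75.9%, a difference of -0.54 points. With all calls weighted equally instead of all bins, it was -2.62 points, and -2.71 points without bins over 1000 calls. A call-weighted value also depends on how each library spreads its calls over bins of unlike level. In bins grouped by GC, from 30% to under 75%, mean bin differences lay between -0.13 and -0.62 points. The part of unequal depth in the -2.62 points was not tested. The mean bin difference was negative on 19 of 19 autosomes, with a mean of -0.53 ± 0.033 points (SD over autosomes, which share the 2 libraries and are not replicates). Of 2363 windows of 1 Mb, 2306 were lower in differentiated cells, 1736 of them on both strands, and the median over windows was -0.54 points. The window with the lowest value, chr2:54000001-55000000 over Galnt13, differed by -2.31 points, and the second, chr18:88000001-89000000, with no protein-coding gene, by -1.97. The highest values were 0.60 points in chr4:25000001-26000000, which holds Fut9, and 0.70 in chr8:68000001-69000000 over March1. The same windows differed at P0 by 0.43, 0.38, -0.84 and -0.49 points, the opposite sign in each. Over all windows, 1600 of 2363 were negative at P0, with a P0 median of -0.12 points. The correlation of window differences between the strands was 0.15 over 2363 windows of the same libraries. In bins with 70% to under 75% GC, which were almost unmethylated, the levels were 4.67% and 4.54%. Bisulfite conversion rates were not analysed here, and their part in a difference of this size was not tested.

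**Figure D1:**
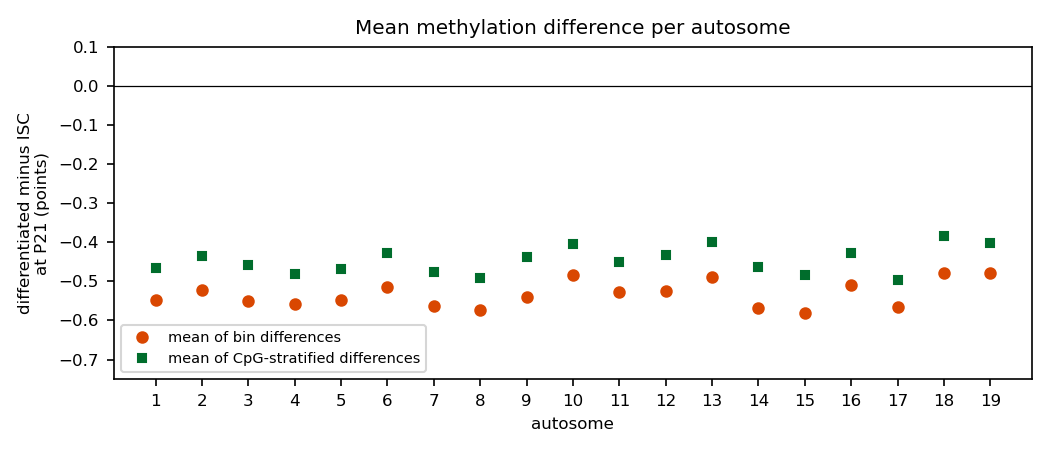
Mean methylation difference (differentiated minus ISC at P21, percentage points) on each autosome, as the mean of bin differences (circles) and as the mean of CpG-stratified differences (squares). All 19 autosomes lie below 0, between -0.58 and -0.48 points for the mean of bin differences.

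Differentially methylated bins between differentiated cells and ISCs (dDMRs) were rare. A bin was called when Fisher's exact test (two-sided, on methylated and unmethylated calls) gave a p under 0.05 after Benjamini-Hochberg adjustment and the levels were more than 15 points apart. This held for 7642 bins, or 0.209% of those tested, with 3014 gains and 4628 losses in differentiated cells and a median size of 26.5 points. Among bins with at least 20 calls in both P0 libraries, 21095 of 3418450 (0.617%) were called at P0 by the same rule. Outside positions with more than 1000 calls, the ISC P0 and differentiated P0 libraries held 373944732 and 588033098 calls. Depth and its balance thus differed between the ages, and their part in the shares called was not tested. Gained bins had a median level of 48.6% in ISCs and 81.0% in differentiated cells, and lost bins of 79.8% and 47.6%. By these medians, both gains and losses ran between intermediate and high methylation rather than between absent and complete methylation. The first quartile was 27.1% in ISCs for gains and 28.4% in differentiated cells for losses, so part of the bins reached lower levels.

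Calls in a bin come from reads that cover several CpGs, and the 2 libraries spread their reads differently over CpG-poor and CpG-rich sequence. Each bin was therefore also compared CpG by CpG and strand by strand with a Cochran-Mantel-Haenszel test, here called the stratified test. Its difference gives a CpG the same weight in both libraries, and CpGs with more calls weigh more. Both tests, and the intervals given below, count every call as independent although 1 read can give several. Their p-values and intervals can therefore overstate the certainty even between these 2 libraries. The stratified test called 8040 bins (0.22%), with 3627 gains and 4413 losses. By both tests 4797 bins were called in 1 direction, which is 62.8% of the bins called on summed calls. In 4160 called bins each strand had at least 8 calls in both libraries. The bins were called on the sum of the strands, so equal signs are largely set by the choice. As a description, 90.4% of them had the same sign on both strands and 56.6% exceeded 15 points on each. With a single CpG taken from each bin, which also leaves fewer calls per test, 78 bins were called.

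Of the called bins, 398 lay in CGIs, 577 within 2000 bp of one and 6667 elsewhere. The share of tested bins that were called was 0.278% in CGIs, 0.242% in these shores and 0.204% elsewhere. CGI bins were deeper than the bins elsewhere, which had medians of 62 and 73 calls, and the order turned round without the test: CGIs held 3.92% of the bins and 5.21% of the calls, but 0.713% of the bins more than 15 points apart. By gene region it was 0.195% in promoters, 0.252% in last exons, 0.206% in gene bodies and 0.211% outside protein-coding genes. Losses made up between 59.0% and 67.5% of the calls in each of these regions. Calls were most frequent in bins whose mean level in the P0 libraries, which took no part in the choice, was intermediate: 0.813% of bins between 20% and 40% were called, against 0.103% of bins between 80% and 100%.

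Most called bins stood alone, 4475 losing and 2950 gaining ones. Of the runs of adjacent bins called in 1 direction, 105 had 2 or more bins, and 7 had 3. The number expected from placement alone was not computed. A gaining run in intron 1 of Slc38a4, an amino acid transporter gene that is imprinted in mice, had levels of 59.96% in ISC P0, 60.3% in differentiated P0, 42.8% in ISC P21 and 63.1% in differentiated P21 (chr15:96885601-96886200). The other gaining run of 3 bins, in intron 2 of Osbpl10, had 48.7%, 75.5%, 49.4% and 68.5%. Among gaining runs of 2 bins, that over exon 9 and the adjacent introns of Mfsd7b had 63.6%, 75%, 19.8% and 65.0%. That in intron 4 of Asz1, a gene of the germ line, had 57.5%, 52.8%, 34.6% and 84.4%. ISCs were lowest among the 4 libraries in Slc38a4, Mfsd7b and Asz1. Of the losing runs, that around exon 11 of Zzef1 had 41.4%, 46.2%, 67.6% and 37.9%. That in intron 5 of Pmm1, a phosphomannomutase, had 91.9%, 89.8%, 63.8% and 36.6%. That in intron 6 of Foxp1, a forkhead transcription factor, had 18.6%, 29.7%, 41.1% and 17.7%, and that in intron 2 of Hoxd3 had 23.9%, 32.6%, 73.0% and 50.9%. All 8 runs were chosen to have the same sign on both strands.

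To describe larger regions, the stratified test was applied to tiles of 1000 bp, and a tile was called when the adjusted p was under 0.05 and its stratified difference exceeded 10 points. Of 1994436 tiles, 7156 were called (0.359%), 2832 gains and 4324 losses. In 5139 of them (71.8%) both strands showed the same sign with at least 5 points each, and these 2024 gains and 3115 losses, with a median size of 16.2 points, are described below. Tiles were named by the smallest adjusted p of the stratified test (chi-square, 1 degree of freedom, Benjamini-Hochberg adjusted over all tiles) after their values had been seen.

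Losing tiles are given first. That with the smallest adjusted p, in intron 2 of Pax8 (chr2:24329001-24330000, 57 CpGs), a paired-box factor of thyroid and kidney, had a level of 6.87% (Wilson 95% interval 5.35% to 8.78%) in ISC P0, 11.0% (9.71% to 12.4%) in differentiated P0, 46.6% (43.9% to 49.2%) in ISC P21 and 27.5% (25.3% to 29.7%) in differentiated P21. Both P21 libraries lay above both P0 libraries, and ISCs lay above differentiated cells, with a stratified difference of -19.98 points (chi-square test, adjusted p = 6.53e-24). These intervals cover counting error only. Intron 41 of Nbea (chr3:55584001-55585000), upstream of the nested gene Mab21l1, had 23.6%, 21.7%, 52.5% and 34.8% in the same order (-19.22 points, chi-square test, adjusted p = 5.71e-20). Intron 1 of Mecom, a zinc-finger factor, had 3.7%, 4.20%, 15.7% and 5.44%, so the differentiated library stayed near the P0 values and the ISC P21 library stood apart (-13.06 points, chi-square test, adjusted p = 2.34e-16). In intron 6 of Foxp1 the levels were 39.3%, 44.4%, 57.7% and 35.3%, with the P0 levels between those of P21. Exon 6 and intron 6 of Prdm14, a pluripotency factor, was a different case: ISCs had 40.9% at P0 and 46.0% at P21, and the low value was that of differentiated cells at P21, with 28.6%, against 50.04% at P0. Celsr1, a planar cell polarity cadherin, had 43.7%, 53.0%, 66.6% and 45.4% in its intron 1.

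In each gained tile of this paragraph ISC P21 was the lowest library. The first by adjusted p, 611 bp from the predicted gene 1700012B15Rik, had 11.5%, 10.1%, 7.58% and 17.1%. Exon 2 of Aldh1b1 (chr4:45816001-45817000), a mitochondrial aldehyde dehydrogenase, had 88.4% (Wilson 95% interval 85.7% to 90.6%) in ISC P0, 89.9% (88.5% to 91.1%) in differentiated P0, 44.9% (41.8% to 48.0%) in ISC P21 and 62.0% (59.8% to 64.2%) in differentiated P21. The level was lower at P21 in both populations, and lower in ISCs than in differentiated cells by a stratified difference of 16.98 points (chi-square test, adjusted p = 8.52e-15). A tile 3339 bp from Lmbr1l had 85.3%, 85.7%, 61.3% and 83.6%, and here the differentiated library was close to P0. Exon 3 and adjacent introns of Srebf2, a regulator of sterol synthesis, had 46.6%, 44.4%, 21.4% and 32.7%. Intron 2 of Scg5, a secretory granule protein, had 82.2%, 77.2%, 49.0% and 64.7%. The tile over exon 1 and intron 1 of Hsd17b13, a lipid droplet enzyme, had 77.7%, 61.8%, 11.7% and 36.1%. The last exon of Notch2, a Notch receptor, held a tile with 86.6%, 87.9%, 68.8% and 80.7% (10.19 points, chi-square test, adjusted p = 8.06e-08), where the strands differed by 18.44 and 5.03 points.

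**Figure D2:**
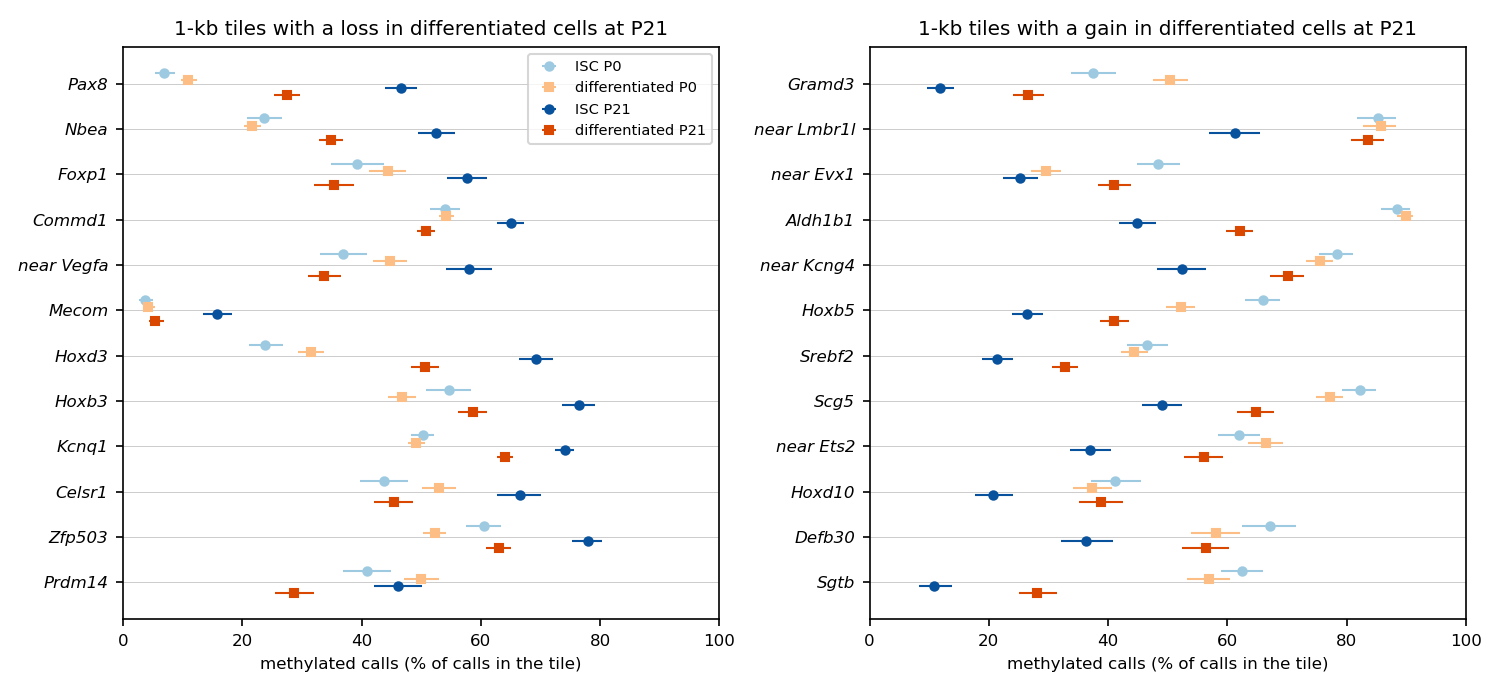
Methylation level (percent of calls, x axis) of 12 losing and 12 gaining 1-kb tiles with the smallest adjusted p, predicted genes left out, in each of the 4 libraries, with Wilson 95% intervals as bars (counting error only). In the losing tiles the dark blue circle (ISC P21) lies right of the dark orange square (differentiated P21), as in Pax8 with 46.6% against 27.5%, and in the gaining tiles it lies left, as in Aldh1b1 with 44.9% against 62.0%.

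Hox genes, which pattern the body axis including the gut, took part in both directions. Of 243 tested tiles over Hox genes, 17 were called (6.996%, beside 0.359% of all tiles), 8 gains and 9 losses, and all 17 had the same sign and at least 5 points on each strand. These tiles had a median of 24 CpGs against 8 over all tiles, and 0.545% of all tiles with 20 to 39 CpGs were called. Hox genes were taken as a set after tile values had been seen, and many of their tiles are neighbours. Their share of called tiles is therefore a description of the same calls and not a test. Intron 2 of Hoxd3 had 23.8%, 31.5%, 69.3% and 50.7% in ISC P0, differentiated P0, ISC P21 and differentiated P21. Its exon 4 had 22.7%, 32.3%, 61.3% and 43.8%, and intron 2 of Hoxb3 had 54.7%, 46.8%, 76.5% and 58.7%. These tiles were more methylated at P21 and most of all in ISCs. Exon 1 of Hoxb5 went the other way, with 65.9%, 52.2%, 26.4% and 41.0% and lower levels at P21 in both populations. In the last exon and intron of Hoxd10, with 41.2%, 37.3%, 20.6% and 38.8%, ISCs were lower at P21, and the stratified change in differentiated cells was 0.11 points. A tile 3629 bp from Evx1, the homeobox gene beside the HoxA cluster, had 48.4%, 29.6%, 25.2% and 41.0%, so the order of ISCs and differentiated cells was reversed between the ages (P0 difference -13.37 points, chi-square test, adjusted p = 5.95e-06). The stratified difference at P21 was 19.77 points (chi-square test, adjusted p = 5.68e-15). The tile over exon 3 of Evx1 (chr6:52267001-52268000) kept its order, with 56.02%, 62.8%, 45.8% and 59.4%. It was called in the same direction at both ages, with 20.34 points at P21 (chi-square test, adjusted p = 1.39e-05) and 11.13 at P0 (chi-square test, adjusted p = 0.026).

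A few named tiles lay at loci known to be imprinted, where 1 parental copy is methylated. They were picked after their values were seen. In intron 11 of Kcnq1 (chr7:150481001-150482000, 70 CpGs) the levels were 50.2%, 49.2%, 74.1% and 64.1%, and the strands differed by -5.54 and -17.91 points. The tile in intron 2 of Commd1 that ends beside the nested imprinted gene Zrsr1 had 54.0%, 54.2%, 65.0% and 50.8%. The tile over exon 1 of Plagl1, an imprinted zinc-finger gene, had 61.3%, 42.9%, 63.4% and 47.1%. Plagl1 was one of 100 tiles called in the same direction at both ages, with -15.47 points at P21 (chi-square test, adjusted p = 1.11e-10) and -14.72 at P0 (chi-square test, adjusted p = 1.05e-06). Kcnq1 and Commd1 differed at P0 by 1.20 and -0.93 points, which did not pass the test.

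The P0 libraries, which took no part in choosing the tiles, allow each P21 population to be set against P0. The P21 libraries did take part, so levels low in ISCs or high in differentiated cells among gains are partly set by the choice. The reverse holds among losses. Of the 5106 tiles with both strands in 1 direction and at least 20 calls in both P0 libraries, the P21 levels lay on opposite sides of the mean P0 level in 3499. They lay on 1 side of it with ISCs further away in 1105, and with differentiated cells further away in 502. In deeper tiles, with at least 600 calls in both P21 libraries, the numbers were 41, 61 and 12 of 114 tiles. Calls of a tile are summed over its CpGs, so a limit on calls also selects by CpG number. The part of CpG number was not tested. ISCs were further from P0 in 70.8% of all gains and 48.4% of all losses, and in 76.6% and 74.6% of those with at least 600 calls. These counts and shares rest on summed levels, while the tiles were called on stratified differences. Among the 25 gains with the smallest adjusted p, the stratified change from P0 to P21 had a median of -26.6 points in ISCs and -5.73 points in differentiated cells, and ISCs had moved more in 23. Among the 25 such losses the medians were 21.0 and -4.77 points, and ISCs had moved more in 21. The P0 difference itself had a median of -0.52 points over gains and 0.84 over losses, and 45.2% of the tiles had the same sign at P0. At P0 the stratified test called 19094 of the same 1994436 tiles (0.957%). The P0 and P21 libraries differed in depth, and the part of depth in this share was not tested. At both ages 304 tiles were called, which is 4.25% of the tiles called at P21 and 1.59% of those called at P0, 100 in the same direction and 204 in opposite directions.

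**Figure D3:**
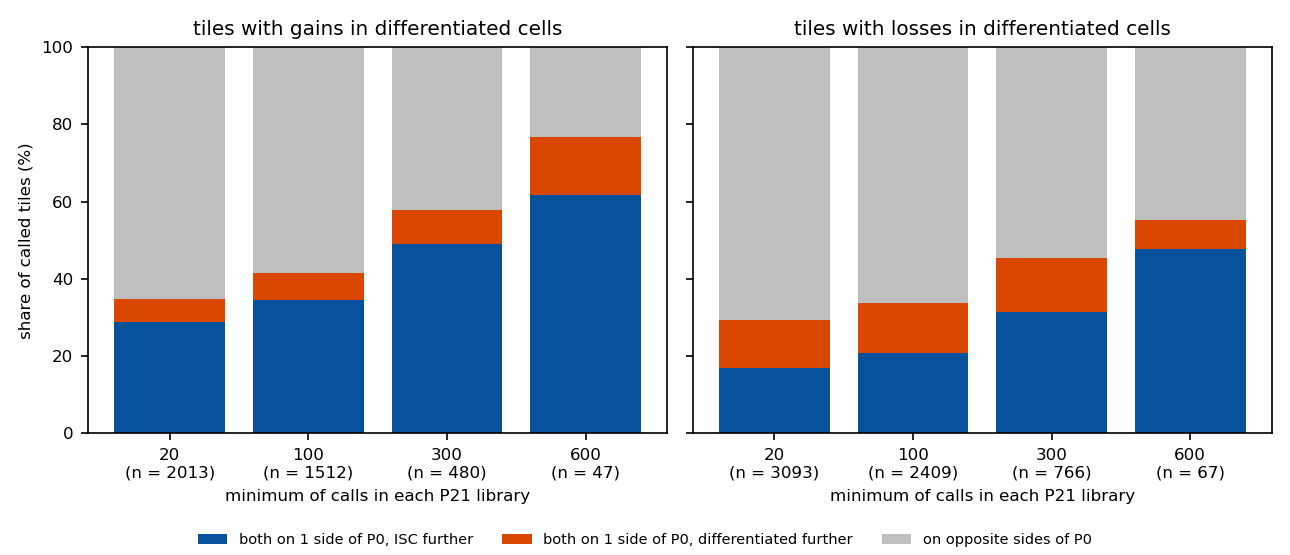
Share (percent, bars adding to 100) of called 1-kb tiles in which the P21 levels lay on 1 side of the mean P0 level with ISCs further away (blue), with differentiated cells further away (orange), or on opposite sides of it (grey), for tiles with at least 20, 100, 300 or 600 calls in each P21 library. The blue share of gains rises from 28.8% of 2013 tiles to 61.7% of 47 tiles, and that of losses from 17.0% of 3093 to 47.8% of 67. Levels are of summed calls, while the tiles were called on stratified differences. A limit on calls also selects tiles by their number of CpGs.

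Lgr5 encodes the R-spondin receptor that marks ISCs, and its expression defined the sort, so its values are a description. The part of stem cells without reporter signal in these values was not tested. Its promoter (1000 bp on either side of the start, chr10:115023836-115025836, 81 CpGs) had a level of 2.97% (Wilson 95% interval 2.05% to 4.29%) in ISC P0, 1.75% (1.33% to 2.32%) in differentiated P0, 1.49% (0.918% to 2.40%) in ISC P21 and 5.77% (4.82% to 6.88%) in differentiated P21. Differentiated cells at P21 were highest and its interval did not overlap those of the other 3 libraries. The stratified difference was 4.96 points (chi-square test, adjusted p = 1.63e-07), with 4.78 and 5.02 on the strands and 0.20 at P0, and did not reach the 10-point limit. The bin centred at -65 bp from the start had 0% of 296 calls in ISCs, compatible with a level as high as 1.01%, and 6.74% in differentiated cells at P21. The bin at -465 bp had 5.71% in ISCs and 20.3% in differentiated cells at P21, and that at -665 bp had 4.17% and 36.1%, against 8.06% and 4.88% at P0. Neither bin passed Fisher's exact test, with an adjusted p = 0.25 on 70 and 153 calls at -465 bp and an adjusted p = 0.071 on 48 and 36 calls at -665 bp. The bin at -865 bp went the other way, with 30.4% of 23 calls in ISCs and 20% of 20 calls in differentiated cells, and did not pass either. Downstream, in intron 1, the bin at 3135 bp, printed above, had 50.5% and 88.3% and was called, but too few calls lay on its minus strand for a comparison. The bin at 3935 bp had 52.9% and 80.9% and was also called, against 92.1% and 86.2% at P0. The 1-kb tile over intron 1 that holds the printed bin (chr10:115021001-115022000) was called at both ages, with stratified differences of 13.95 points at P21 and 10.66 at P0. Its summed levels at P0, 46.4% and 45.5%, were close to each other.

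**Figure D4:**
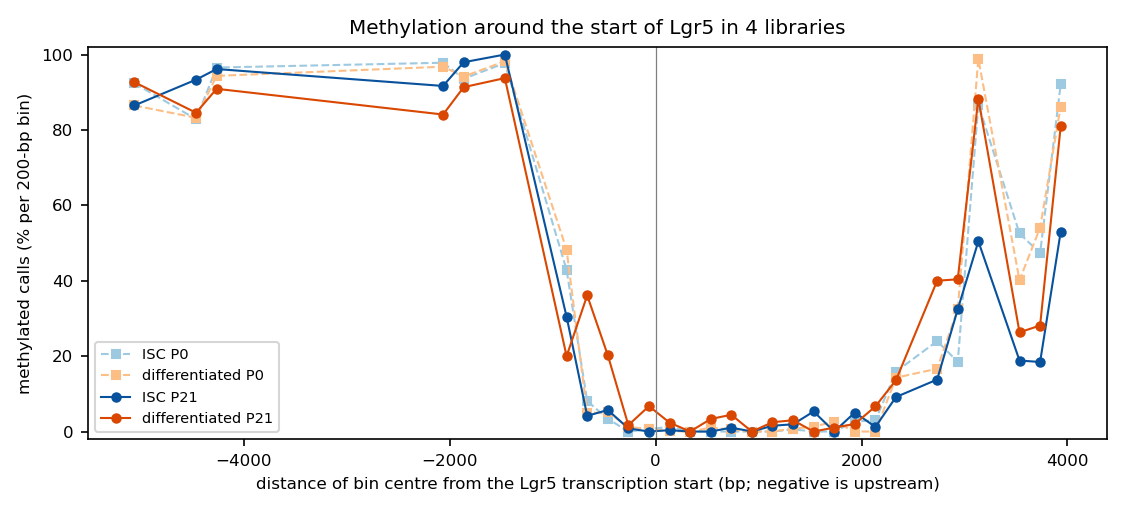
Methylation level (percent of calls per 200-bp bin, y axis) against the distance of the bin from the transcription start of Lgr5 (bp, x axis) in the 4 libraries; lines join bins that passed the limits on CpGs and calls. Around the start the levels are low in every library. In intron 1, at 3135 bp, the ISC P21 library lies at 50.5%, where the others are between 86.7% and 98.8%. This bin had too few minus-strand calls for a comparison of the strands.

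Promoters, gene bodies and last exons of protein-coding genes were compared next, with a limit of 10 points. On summed calls, 734 of 20977 promoters (3.5%) were called, 171 gains and 563 losses. The stratified test called 68 promoters (0.324%), 35 gains and 33 losses, of which 52 were also called on summed calls. In gene bodies 276 of 18381 (1.5%) were called on summed calls and 45 (0.245%) by the stratified test. In last exons 314 of 16437 (1.91%) and 96 (0.584%) were called. Promoter losses were thus 76.7% of the calls on summed calls and 48.5% by the stratified test. Median stratified differences over all genes were -0.080, -0.44 and -0.36 points in promoters, bodies and last exons.

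Of the 30 genes with the largest summed differences on both strands (5 in each direction for each part), 8 were also called by the stratified test. The promoter of Ctso, a cathepsin, had the largest loss on summed calls, with 45.5% in ISCs and 14.8% in differentiated cells at P21 and 43.1% and 18.4% at P0. Compared CpG by CpG the difference was -1.77 points (chi-square test, adjusted p = 0.60). The promoter of Gstm2, a glutathione transferase, fell from 44.5% to 19.2% on summed calls, with a stratified difference of 0.41 points. Vsig2, an immunoglobulin-domain gene of mucosal epithelium, had 29.3% and 84.4% in its last exon on 41 and 64 calls, and a stratified difference of 9.14 points (chi-square test, adjusted p = 0.58). The size was not always lost with the call: the last exon of Phyhd1 on 4 CpGs had -30.9 points summed and -26.7 stratified, and the promoter of Pramel5 22.8 and 18.8.

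**Figure D5:**
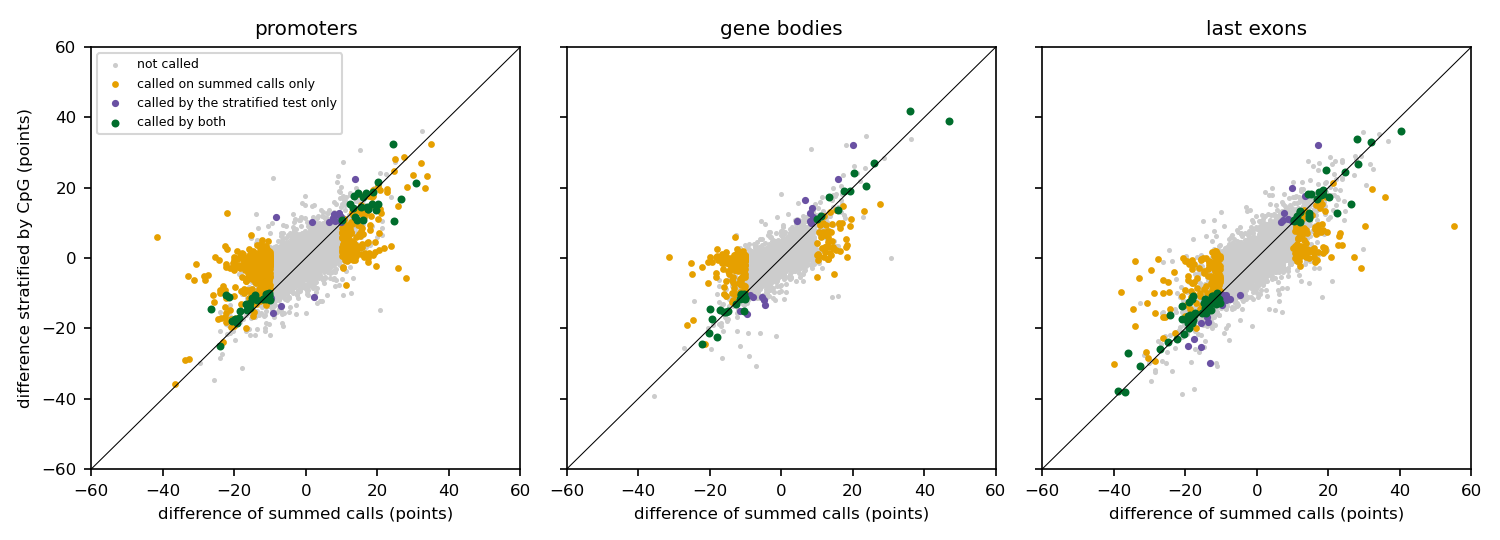
Difference of summed calls (points, x axis) against the difference stratified by CpG and strand (points, y axis) for each gene's promoter, body and last exon; the line marks equal values. Many parts called on summed calls only (orange) lie close to 0 on the y axis, as Ctso with -30.7 and -1.77, while parts called by both tests (green) are past 10 points on both axes.

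Promoters that passed both tests and on both strands numbered 35, 18 gains and 17 losses. Pigr, the receptor that carries polymeric IgA across colonic epithelium, had 81.5% (Wilson 95% interval 77.7% to 84.8%) in ISC P0, 79.6% (76.4% to 82.4%) in differentiated P0, 23.6% (20.1% to 27.5%) in ISC P21 and 7.92% (6.12% to 10.2%) in differentiated P21. Both populations were far lower at P21, and differentiated cells lower still, by -12.78 points on the stratified scale (chi-square test, adjusted p = 9.08e-09, -14.17 and -10.41 on the strands). Hoxa3 had 3.29%, 2.94%, 39.8% and 23.2%, a stratified difference of -13.06 (chi-square test, adjusted p = 5.58e-17). Ces2c, a carboxylesterase, had 52.7%, 40.8%, 40.1% and 13.7%, and Alb, which encodes serum albumin, had 61.5%, 66.6%, 75.8% and 53.6%. The gains included Hnf4g, an HNF4 paralogue of the gut epithelium, with 74.6%, 70.0%, 43.7% and 70.3%. Its stratified difference was 16.78 points (chi-square test, adjusted p = 5.07e-04), and -12.09 at P0. Clec2g, a C-type lectin of the natural killer receptor ligand family, had 68.1%, 54.2%, 35.4% and 59.7%, and Hsd17b13 had 82.4%, 71.4%, 31.9% and 51.6%. Bbox1, the last enzyme of carnitine synthesis, had 67.4%, 65.1%, 38.1% and 58.2%. In these 4 gains ISCs at P21 were the lowest library.

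In gene bodies 12 genes passed both tests and on both strands. Rpl29, a ribosomal protein gene with processed copies elsewhere that make read placement less certain, gained in a short body with 29.3% in ISCs and 53.0% in differentiated cells at P21, and Msc, a helix-loop-helix repressor, with 65.0% and 84.1%. Hoxa6 lost, with 15.1%, 15.3%, 51.1% and 34.0% in the 4 libraries. In last exons 51 genes did so, 21 gains and 30 losses. Pkhd1, which encodes a protein of primary cilia, had 74.2%, 73.0%, 64.9% and 26.0%, but on 4 CpGs only. Tob1, an antiproliferative gene, had 66.1%, 66.7%, 70.4% and 55.9%, and Tmem191c had 17.5%, 13.7%, 65.1% and 40.9%. Mex3a, an RNA-binding protein, had 29.0%, 22.6%, 55.9% and 38.0%. The defensin gene Defb42 gained, with 61.7%, 48.1%, 20.8% and 49.0%, and Hoxb6 and Hoxb7 gained with 25.4% against 35.9% and 29.0% against 39.96% at P21. In Tob1 and Pkhd1 the differentiated P21 library was the one apart from the others, and in Tmem191c, Mex3a and Hoxa6 ISC P21 was highest.

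Genes of the lists for epithelial cell types and pathways are given as counts beside the shares of all genes. List members called on summed calls alone included the promoters of Slc9a3, a sodium-hydrogen exchanger, with 29.0% and 16.5% at P21 (-0.62 points stratified), of Fcgbp, a mucus protein, with 53.6% and 39.4% (0.0069), and of Apc, a Wnt pathway suppressor, with 18.7% and 7.32% (0.40). On summed calls the strands of Fcgbp differed by 16.5 and -17.4 points, those of Apc by -2.56 and -14.99 and those of Slc9a3 by -15.6 and -5.56. These promoters are examples and all losses, and not every called list member, gain or loss, is named. Over all lists, 320 promoters, 312 bodies and 302 last exons were tested, of which 15, 3 and 9 were called on summed calls and 3, 0 and 3 by the stratified test. These were 4.69%, 0.962% and 2.98% on summed calls, beside 3.5%, 1.5% and 1.91% of all genes, and 0.938%, 0% and 0.993% when stratified, beside 0.324%, 0.245% and 0.584%. Of the promoters 94.7% lay within 5 points of equality on the stratified scale, against 91.6% of all promoters, of the bodies 97.8% against 95.6%, and of the last exons 80.1% against 81.6%. The 22 promoters of the colonic stem cell list had a median of 0.027 points and a range of -3.701 to 4.96, with Lgr5 at the upper end. Ascl2, the Wnt-dependent stem cell factor, had 6.51% and 5.09% in ISCs and differentiated cells at P21, and Smoc2 had 5.80% and 5.51%. The promoter of Olfm4 was called on summed calls with 46.2% and 33.8%, and differed by -3.701 points when stratified (chi-square test, adjusted p = 0.39). The last exon of Rnf43, a Wnt receptor ubiquitin ligase, had 65.8% and 84.4%, and 7.97 points when stratified (chi-square test, adjusted p = 0.14). Medians of the 17 cell cycle, 28 Wnt and 18 Notch pathway promoters were -0.13, 0.028 and -0.050 points.

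The 2 Wnt pathway genes called by the stratified test had their difference in the last exon, 2 of 27 tested beside 0.584% of all last exons. Axin1, a scaffold of the beta-catenin destruction complex, had 84.1%, 84.6%, 64.8% and 91.1% in the 4 libraries (15.31 points, chi-square test, adjusted p = 0.040), on 9 CpGs. Tcf7, a transcription factor of the Wnt pathway and also of T cells, had 74.0%, 68.5%, 72.3% and 58.0% (-11.78 points, chi-square test, adjusted p = 0.024). On the Notch list 1 of 17 last exons was called, beside the same 0.584%. It was that of Mfng, a glycosyltransferase that modifies Notch, with 61.3%, 56.5%, 58.5% and 41.2% (-15.70 points, chi-square test, adjusted p = 0.014). The 30 gut transcription factor promoters had a median of -0.085 points, and 1 of them, Hnf4g, was called by the stratified test, beside 0.324% of all promoters. Cdx2, a master regulator of intestinal identity, had 1.13% and 0.801% at P21, and Hnf4a had 13.4% in both, after 35.1% and 32.3% at P0.

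Among markers of differentiated types, the 33 colonocyte promoters had a median of 0.18 points and a range of -18.76 to 7.33 on the stratified scale. On summed calls 2 gained and 4 lost, with 3.5% called over all promoters, and the stratified test called 0, with 0.324% called over all promoters. Slc26a3, the chloride exchanger of colonocytes, had 22.3% and 18.1% at P0 and 5.88% and 4.93% at P21. The promoter of Vil1, which encodes the microvillus protein villin, had 6.38%, 4.32%, 0.839% and 0%, where the last allows a level of up to 0.414%. Krt20 had 53.0% and 50.96% and Muc2, the main colonic mucin, 46.0% and 48.4% at P21. The 22 goblet, 23 enteroendocrine and 20 tuft cell promoters had medians of 0.025, -0.023 and -0.15 points. By the stratified test 1 of the 22 goblet promoters was called, beside 0.324% of all promoters. It was St6galnac1, a sialyltransferase of mucin glycans, with 62.9%, 69.6%, 78.6% and 68.3% (-10.47 points, chi-square test, adjusted p = 0.0082), and its strands differed by -14.62 and -1.58 points.

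Markers of other cells were compared in the same way. The 25 T lymphocyte, 11 B lymphocyte and 16 myeloid promoters had medians of -0.43, 1.06 and 0.81 points and their median levels in ISCs and differentiated cells were 79.4% and 78.7%, 71.03% and 74.0%, and 71.7% and 77.3%. The stratified test called 0 of them, beside 0.324% of all promoters, and the summed test called 1, beside 3.5% of all promoters. This was Cd28, a T cell costimulatory receptor, with 64.0% and 35.8% and a stratified difference of -6.36 points. The promoter of Cd3e, a T cell receptor subunit, had 86.7% in ISCs and 88.7% in differentiated cells, and Ptprc 71.2% and 66.5%. The 16 mesenchyme, 14 endothelium and 12 enteric neuron and glia promoters had medians of 0.16, -0.38 and 0.20 points. The stratified test called 1 of the 16 mesenchyme promoters, beside 0.324% of all promoters, and it was Pdgfrb, a receptor of mesenchymal cells, with 65.7% and 52.0% at P21 (-11.82 points, chi-square test, adjusted p = 4.51e-05). The 16 promoters of the epithelial gate list, with Epcam at 3.02% and 2.36%, had a median of -0.035 points. A methylation level does not measure how many cells of a type a pool held, and the part of other cells in the differences above was not tested.

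Short motifs were searched on both strands of every bin, as a description of the letters and not of binding. The GATA letters AGATAA stood in 12.1% of gaining bins and in 8.86% of losing ones, beside 9.71% over the bins tested. The CDX letters TTTATNG stood in 10.9% and 12.5%, against 9.14%. The HNF4 letters CAAAGTCC were in 1.43% and 1.17% against 0.807%, and the FOX letters TGTTTAC in 3.95% and 3.61% against 2.73%. The ETS letters CCGGAA were in 4.94% and 4.86% against 3.66%, and the SP letters GGGCGG in 6.20% and 6.37% against 4.98%. KLF (CACCC) was in 34.9% and 38.2% against 35.3%, AP-1 (TGANTCA) in 6.64% and 6.42% against 5.80%, and the E-box CAGCTG in 11.4% and 10.4% against 10.2%. TCF/LEF (TTCAAAG) was in 4.31% and 4.62% against 4.50%, RUNX (TGTGGT) in 12.9% and 12.7% against 14.2%, and the CTCF core CCACNAGG in 3.09% and 2.83% against 2.92%. Among bins called by both tests AGATAA stood in 12.4% of gains and 8.30% of losses, and TTTATNG in 11.02% and 13.4%. Called bins held more CpGs than bins tested, a median of 4 against 3, and no test was made of these shares.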

How the data were processed

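Whole-genome bisulfite sequencing was available for 1 library each of ISCs and differentiated cells at P0 and P21. Per the labels and the methods of the study, the authors ligated adaptors, converted DNA with the EZ DNA Methylation-Direct kit, sequenced paired-end reads and mapped them to mm9 with Bismark and Bowtie (versions, and whether duplicates were removed: not given in the sources used here). The deposited values at each CpG cytosine are a methylated count, a total count and the fraction of the first over the second. Levels were recomputed from the counts. Between 0.465% and 0.850% of the positions matched no CpG of the reference and were dropped.

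Strands were summed over 200-bp bins, and promoters, bodies and last exons followed the longest coding transcript of GENCODE M1. CGIs were windows of 500 bp with at least 25 CpGs. Main calls used Fisher's exact test with Benjamini-Hochberg adjustment. The stratified test and the 1-kb tiles were added after the data were seen, because summed calls mix CpGs of unequal depth. Members, gene lists and tests were chosen with earlier results of these data known. Genes eligible to be named were set by rule: in each part and direction the 5 called genes with the largest difference, at least 4 CpGs and 10 calls per strand, at least 5 points on each strand, and less than 5 times the median depth, without predicted genes, plus called list genes, 4 runs in each direction and the extreme windows. Only some of the eligible largest-difference genes and list genes are named in the text. They were picked as examples after their values were seen. Genes that passed both tests, and tiles, were named after their values were seen. The 2 bin tests were tried on simulated calls of 1 autosome, drawn independently at the real depth of each CpG. This did not cover tiles, gene parts, the naming of genes or several calls from 1 read. Python 3.11.15, NumPy 2.4.6, SciPy 1.17.1 and numba 0.67.0 were used. Every group had 1 library, so tests compare libraries, and intervals and the floor of 3 counts cover counting error only. Tests and intervals count calls of 1 read as independent.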

Additional observations from a re-analysis of the deposited data

Results flagged for a closer look

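With 1 library in each group no library could be set against replicates. The stratified test called 13 parts at both ages in opposite directions, and the difference between the ages was not tested. In 2 of them the strands had opposite signs at P21, and these are not named. At P21 and at P0, in points, the promoter of Alb differed by -10.56 and 13.54, that of Clec2g by 32.36 and -14.76, that of Ern2 by -11.67 and 10.55, that of Hnf4g by 16.78 and -12.09, that of Hoxb5 by 12.03 and -10.03 and that of Mab21l1 by -10.24 and 12.57. The body of Bdkrb1 differed by 12 and -11.73. The last exon of Cpsf4l differed by 12.86 and -16.47, that of Defb42 by 26.76 and -13.70, that of Polr2f by -22.92 and 34.16, and that of Tmem92-ps by -12.63 and 15.75. At P0 the strands had opposite signs in 3 of the 11 named parts, with 21.06 and -3.30 points in Alb, 1.15 and -11.72 in Hoxb5 and -31.42 and 18.39 in Defb42. In the same direction at both ages were 1 promoter, 0 bodies and 3 last exons. Of 20977 promoters, 18381 bodies and 16437 last exons tested, the stratified test called 68, 45 and 96 at P21. At P0, in libraries of other depth, it called 83, 45 and 171 of them.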

How the results depend on the processing

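No paired analysis was possible because each group had 1 library. The 7642 bins became 2866 at more than 30 points, 277139 without a test, 78 with 1 CpG per bin, 3005 with the deeper library thinned and 2356 with more than 15 points on each strand. The other alternatives (10 or 40 calls, 4 CpGs, no bins over 1000 calls, shifted bins, chromosome X, stratified test) stayed within 1.5 times, between 7072 and 8177. The share of losses was 60.6%, and 50% with 1 CpG per bin. The mean difference of -0.54 points was -2.62 with all calls weighted equally, -2.71 when bins over 1000 calls were also left out (an alternative chosen after seeing the data), -0.50 over single CpGs, -0.39 and -0.37 on the plus and minus strand, -0.53 with 40 calls, -0.46 over GC strata and -0.45 when stratified by CpG, and 0 of these changed its sign. The share of called bins in CGIs, 5.21%, was 0.713% without a test, 7.82% with thinned calls, 2.002% with CGIs of 35 CpGs and 4.66% with the stratified test. Agreement of strands was 90.4% and 89.5% with the stratified test, and the same sign at P0 was 51.4% and 46.7%. Negative windows were 97.6% and 95.3% when stratified. Promoter calls, 734, were 208 above 15 points, 147 by mean CpG levels, 456 with strand agreement, 428 and 1448 with windows of 500 and 2000 bp, and 68 with the stratified test, with losses of 63.9%, 55.1%, 77.2%, 63.6%, 93.6% and 48.5% against 76.7%. Body calls, 276, were 69, 54 and 45 above 15 points, by mean CpG levels and stratified, with losses of 65.2%, 55.6% and 55.6% against 76.4%. Last exon calls, 314, were 138, 123, 205 and 96 above 15 points, by mean CpG levels, with strand agreement and stratified. List calls, 27, were 8 above 15 points and 6 stratified, with losses of 37.5% and 66.7% against 77.8%. Tiles, 7156, were 4147 above 15 points. Of the 30 parts named by their summed difference, 8 were also called when stratified. Among these and the list members, 6 parts changed sign: the promoters of Gstm2 (0.41), Fcgbp (0.0069) and Apc (0.40), the bodies of Trim13 (0.27) and Nhp2l1 (0.17) and the last exon of Aldh3b1 (-2.81). Unless stated, the cause was not tested. The stratified test compares each CpG with itself, so calls spread differently over CpGs in the 2 libraries do not by themselves give a difference. CpGs with more calls in both libraries weigh more, so depth still sets which CpGs count most. With 1 library per group, no spread between animals could be given.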
